A study of Mus musculus with 24 samples.

Results

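Gm47808, Gm48754, Gm44660 and Gm44739 are 4 predicted noncoding genes of the mouse whose exons lie wholly inside copies of the endogenous retrovirus MERVL. They were taken from 55291 gene names of the read count files as predicted genes that hold, on the transcribed strand, a site for an antisense oligonucleotide against MERVL and that were among the most reduced in knockdown embryos. The knockdown values of these 4 genes therefore chose them and are given below as a description, with no test. Total RNA had been sequenced from preimplantation embryos of 8-week-old B6D2F1 mice, a hybrid strain whose genome differs from the reference. Each zygote had received oligonucleotide at 20 µM in the male pronucleus, either a scrambled sequence (control) or a mixture of 3 MERVL sequences (MERVL-KD), and no other allele or agent separated the groups. Libraries were made of 30 embryos each, without zona pellucida, at the 2-cell stage (1.5 days post coitum) and at the 4-cell and 8-cell stages (both labelled 2.5 days post coitum), with 2 replicate libraries of control and 2 of MERVL-KD per stage, 12 in all. The embryos of a library had been chosen by their cleavage stage under the microscope and were pooled. An oligonucleotide of this kind acts on RNA and leaves the DNA of the copy in place, and the scrambled control was injected in the same way, so that uninjected embryos were not part of the comparison. The ATAC-seq libraries were not analysed here.

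MERVL is a retrovirus-like element that entered the germ line of an ancestor of the mouse and now lies scattered over the genome in many near-identical copies. A complete copy has a long terminal repeat (LTR) of the MT2_Mm type at each end, and the first LTR contains the promoter. The internal region between them, MERVL-int, derives from retroviral gag and pol genes, and no envelope gene is present. MERVL is known for a burst of transcription at the 2-cell stage, when the embryo's own genome is first switched on, and the transcription factor DUX is a known activator of its LTR. Gene annotation projects build predicted genes from single transcripts seen in cDNA collections, so a transcript that started in an LTR can enter the annotation as a noncoding gene with a name of its own.

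The oligonucleotides are shown because they are the agents that separate the groups. Each is written 5′ to 3′, and capitals mark the bases that fail to pair with a site in at least 1 of the 4 genes or their copies:
MERVL-ASO1: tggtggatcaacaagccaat
MERVL-ASO2: catttgTctgtttaccacga
MERVL-ASO3: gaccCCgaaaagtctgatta
Scramble-ASO: agcgcgggtattgaaccagg

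The sites read from GRCm38 on the transcribed strand of the 4 copies follow, written as DNA, with capitals at the bases that differ from the exact complement of the oligonucleotide:
MERVL-ASO1 site in all 4 genes: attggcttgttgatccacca
MERVL-ASO2 site in Gm47808, Gm44660 and the copy of Gm44739: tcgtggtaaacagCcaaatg
MERVL-ASO3 site in Gm47808 and Gm48754: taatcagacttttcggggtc
MERVL-ASO3 site in Gm44660: taatcagacttttcTTggtc
MERVL-ASO3 site in the copy of Gm44739: taatcagacttttcgAggtc

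MERVL-ASO1 was the oligonucleotide whose site was matched at every base in all 4 genes. Its sites lay at chr12:11512112-11512131 in an exon of Gm47808, chr13:17932645-17932664 in the intron of Gm48754, chr7:19897594-19897613 in the exon of Gm44660 and chr7:73678135-73678154 in the exon of Gm44739. The site began 259 bases from the annotated start of Gm47808 and Gm48754, 260 from that of Gm44660 and 151 from that of Gm44739. Each MERVL-ASO2 site carried the same difference, A14C, where positions are counted from 1 at the 5′ end of the target and the complement of the oligonucleotide is named first. The gene Gm48754 held no MERVL-ASO2 site with up to 2 mismatches, and a limit of 4 mismatches gave the same number of sites in each of the 4 genes. The MERVL-ASO3 site was matched at every base in Gm47808 (chr12:11510254-11510273) and Gm48754 (chr13:17934431-17934450, in the intron), carried G15T and G16T in Gm44660 (chr7:19899452-19899471) and carried G16A in the copy of Gm44739. In that copy the MERVL-ASO2 sites (chr7:73676490-73676509 and chr7:73676529-73676548) and the MERVL-ASO3 site (chr7:73676238-73676257) lay beyond the annotated end of the gene. Over the whole genome MERVL-ASO1 had 702 perfect sites and MERVL-ASO3 had 630, while MERVL-ASO2 had 0 perfect sites and 322 with 1 mismatch, and the scrambled sequence had 1 site with 2 mismatches and 0 closer ones.

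All 4 genes lay in nearly complete copies. In GRCm38, Gm47808 (ENSMUSG00000113226) spans chr12:11507226-11512390 on the minus strand inside a copy of 6474 bases, and Gm48754 (ENSMUSG00000113100) spans chr13:17932386-17938434 on the plus strand inside a copy of 6397 bases. Gm44660 (ENSMUSG00000108942) spans chr7:19897334-19899798 on the plus strand inside a copy of 6354 bases, and Gm44739 (ENSMUSG00000108473) spans chr7:73676880-73678305 on the minus strand inside a copy of 6511 bases. Every exon base of the 4 genes (100.0%) aligned to MERVL in the sense direction. The copies were 96.5% to 98.3% identical to a complete reference copy of 6435 bases on chromosome 1, and pairs of the 4 copies were 95.7% to 98.3% identical to each other. The LTRs at the ends of a copy were 100.0% identical in Gm47808, 99.4% in Gm48754, 99.8% in Gm44660 and 99.2% in Gm44739. Gm48754 lies in an intron of Rala, a gene of a Ras-like GTPase on the opposite strand, and shares 0 exon bases with it. The other 3 genes overlapped no other annotated gene.

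**Figure D1:**
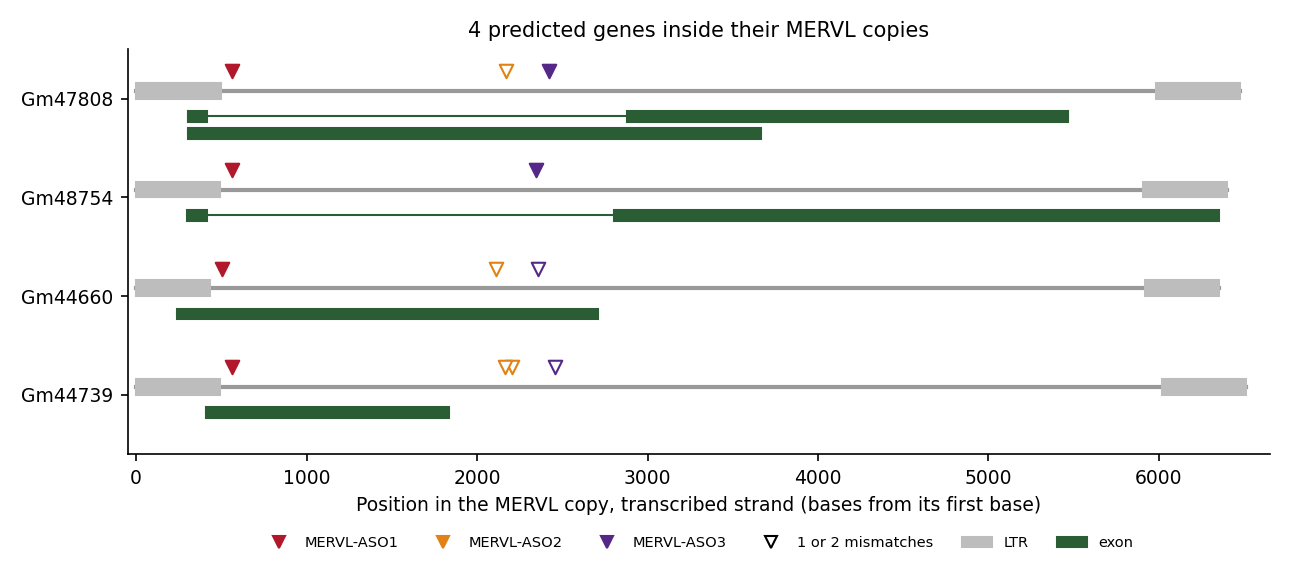
Map of the 4 genes in their MERVL copies, drawn to scale along the transcribed strand (x axis, bases from the first base of the copy). Grey bars are the LTRs, green bars the exons of each annotated transcript, filled triangles sites matched at every base and open triangles sites with 1 or 2 mismatches; Gm44739 ends before its MERVL-ASO2 and MERVL-ASO3 sites.

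The annotated models differed in length and splicing. Gm47808 had 2 transcripts, an unspliced one of 3362 bases and a spliced one whose first exon of 115 bases is followed by an intron of 2460 bases, and its exons cover 5165 bases. Gm48754 had a first exon of 115 bases, an intron of 2388 bases and a second exon of 3546 bases. Gm44660 and Gm44739 each had 1 exon, of 2465 and 1426 bases. The longest open reading frame within the joined exons was 707 codons in Gm47808, 976 in Gm48754 and 581 in Gm44660 against 38 in Gm44739, although the annotation classes all 4 as noncoding. In Gm47808 the joined exons merge its 2 transcripts, so this frame need not lie within either of them. These classes were processed transcript for Gm47808, antisense for Gm48754, lincRNA for Gm44739 and TEC, a class for transcripts that await experimental evidence, for Gm44660.

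The starts show where in the LTR each annotated transcript begins, and capitals mark the bases from the first annotated base onward:
Gm47808 start: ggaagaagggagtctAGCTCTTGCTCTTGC
Gm48754 start: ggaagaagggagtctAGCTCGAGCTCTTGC
Gm44660 start: gacattggaagaaggGAGCTCTAGCTCTTG
Gm44739 start: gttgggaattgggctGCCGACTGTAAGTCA

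Gm47808 and Gm48754 began at base 302 and base 301 of their copies and at the same base, 300, of the reference copy, and Gm44660 began slightly before it, at base 294. Gm44739 was annotated from base 408 of the reference copy. The splice sites of the spliced transcripts are shown with exon bases in capitals:
Gm47808 and Gm48754 splice donor: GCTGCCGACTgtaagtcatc
Gm47808 splice acceptor: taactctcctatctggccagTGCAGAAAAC
Gm48754 splice acceptor: taactcttctatctggccagTGCAGAAAAC

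The donor letters were also present in the copies of both single-exon genes, 116 bases into Gm44660 and 7 bases into Gm44739, without an annotated intron. In the set of 24 gene names other than miRNAs whose exons were at least 90% sense MERVL, 15 kept an intron when their transcripts were merged, and the first exons of these 15 were 114 or 115 bases long. In Gm47808 all 3 oligonucleotide sites fell inside the intron of the spliced transcript, so they lie in the exon of the unspliced transcript alone. In Gm48754 both sites were intronic.

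Total counts per library ranged from 28167085 to 41482526. MERVL-int, the targeted internal region, had counts of 2123018 and 2716733 in control embryos of the 2-cell stage against 55688 and 43410 after knockdown, and it was lower in both MERVL-KD libraries than in both controls at every stage. Of 10 markers of the 2-cell stage, 8 were called lower from the 2-cell to the 4-cell stage in control embryos, against 28.5% of all genes tested. Their summed level, mostly Sp110, was 1830 to 1967, 1451 to 1552 and 1754 to 1856 CPM (counts scaled to the library total with TMM factors) in control 2-cell, 4-cell and 8-cell libraries. The summed level of 9 later-stage markers lay between 203 and 213 CPM in control 2-cell, between 651 and 653 in control 4-cell and between 877 and 881 in control 8-cell libraries. Klf5 made up 57.4% and 58.4% of this sum at the 4-cell and 8-cell stages. Of the 9, 3 were called higher and 2 lower from the control 2-cell to the 4-cell stage, and 3 higher and 0 lower from there to the 8-cell stage. Of 8 cumulus cell markers, the summed level lay between 17.01 and 25.9 CPM in all 12 libraries, Amhr2 made up 81.9% or more of it in each group, and Ptx3 was at 0 in both libraries of 5 of the 6 groups. In bulk libraries, fewer cells of a type and less RNA per cell cannot be told apart.

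Among the 4 genes, Gm47808 had the most counts in every control library. It held 7550 and 10068 counts in the 2 control 2-cell libraries, 2367 and 2185 in control 4-cell libraries and 1290 and 1360 in control 8-cell libraries, or 260 ± 35.7, 71.1 ± 6.23 and 46.0 ± 0.836 CPM (mean ± SD, n = 2). Gm44739 held 3723 and 5087 counts at the 2-cell, 1487 and 1176 at the 4-cell and 631 and 708 at the 8-cell stage in control libraries, which is 130.0 ± 20.1, 41.3 ± 0.896 and 23.2 ± 0.601 CPM. By mean CPM these genes held the first and second place at every stage, although at the 2-cell stage the libraries of Gm44739 spanned those of Gm48754.

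Gm48754 held 3731 and 4277 counts in control 2-cell, 1233 and 931 in control 4-cell and 549 and 491 in control 8-cell libraries (119 ± 3.65, 33.5 ± 1.82 and 18.1 ± 2.43 CPM, n = 2). Gm44660 held 3019 and 4112, 835 and 647, and 565 and 590 counts at the same stages (105.2 ± 16.01, 23.0 ± 0.830 and 20.1 ± 0.500 CPM, n = 2). The control libraries of Gm48754 and Gm44660 overlapped in level at the 2-cell stage, where Gm44660 ranged below and above the lower library of Gm48754. Together the 4 genes took 0.0538% and 0.0570% of all counts in control 2-cell libraries and 0.00945% and 0.00962% in control 8-cell libraries.

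**Figure D2:**
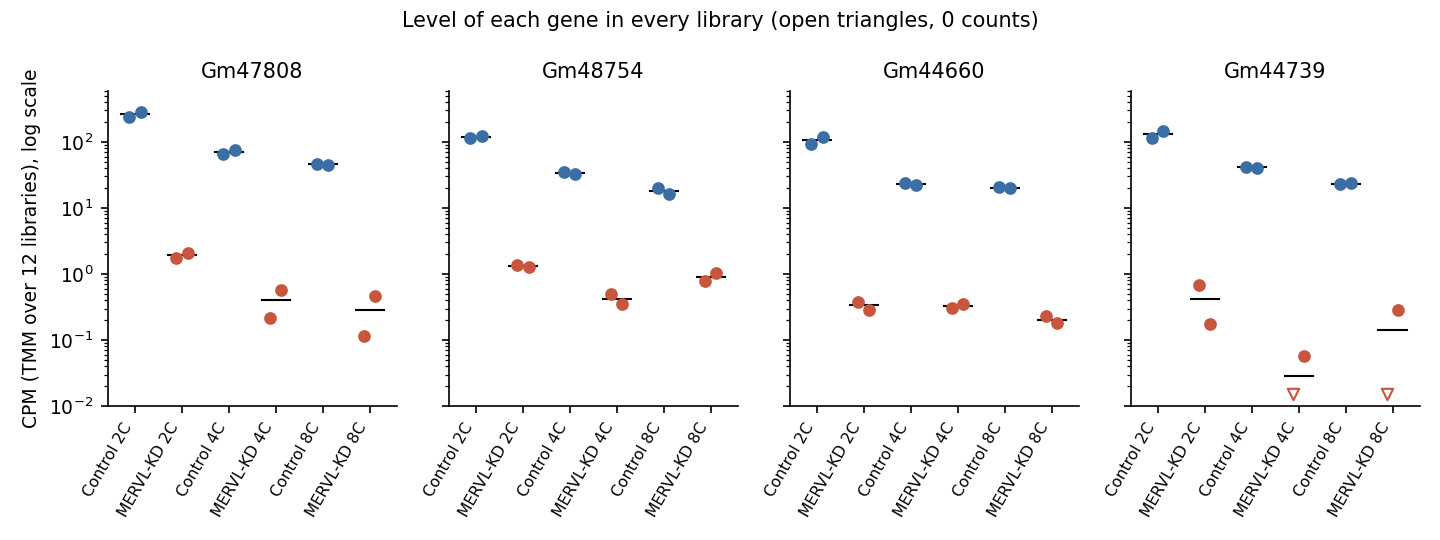
Level of each gene in all 12 libraries as CPM (y axis, log scale) by group (x axis, control in blue and MERVL-KD in red). Points are libraries, bars are group means of 2 libraries and open triangles mark libraries with 0 counts; in each gene and stage both MERVL-KD libraries lie below both controls, with the smallest gap for Gm48754 at the 8-cell stage.

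Per kilobase of exon (CPM per kilobase, RPKM) the order was different, with Gm44739 highest. In control 2-cell embryos Gm44739 had 91.2 ± 14.1 RPKM, Gm47808 50.4 ± 6.91, Gm44660 42.7 ± 6.49 and Gm48754 32.4 ± 0.997 (SD, n = 2). The libraries of Gm44739 (81.2 to 101) stood above those of all other genes, and Gm47808 (45.5 to 55.3) and Gm44660 (38.1 to 47.3) overlapped. The reads had to align uniquely, which limits the counts from exon sequence shared with other copies. The windows below treat each mate of a read pair alone. A mate in unique sequence can place its partner, so the windows are only a rough guide to the alignable length. Windows of 150 bases, the read length, in the exons were sought as exact copies in the MERVL sequence of the GRCm38 chromosomes. Contigs outside the chromosomes were not searched. Of all windows, 41.4% were found nowhere else there for Gm44739, 30.4% for Gm47808, 19.8% for Gm44660 and 17.9% for Gm48754. The commonest window of each gene occurred 488 to 713 times. Per 1000 such unique windows the level was 219 to 273 CPM for Gm44739, 205 to 254 for Gm44660, 191 to 199 for Gm48754 and 154 to 187 for Gm47808. On that scale, chosen after the data had been seen, the ranges of Gm44739 and Gm44660 overlapped and Gm47808 moved from second to last, so the order of the genes per length depends on how the alignable length is counted.

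Across stages in control embryos, a comparison that did not choose the genes although it shares the control 2-cell libraries with the one that did, all 4 fell from the 2-cell to the 4-cell stage by more than 2-fold. A fall was called at an adjusted p under 0.05 in edgeR's quasi-likelihood test and at least a 2-fold change, which 28.5% of the 20272 genes tested met in the same direction. Gm44660 fell most (log2 fold change −2.10 ± 0.121, SE, adjusted p = 1.6e-07), followed by Gm47808 (−1.77 ± 0.107, adjusted p = 2.22e-07), Gm48754 (−1.73 ± 0.104, adjusted p = 2.2e-07) and Gm44739 (−1.55 ± 0.112, adjusted p = 8e-07). MERVL-int changed by −1.83 and MT2_Mm by −1.80, within the range of the 4 genes. The other 20 gene names made of MERVL were all lower at the 4-cell stage by the same criteria.

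From the 4-cell to the 8-cell stage the decline was smaller. None of the 4 genes reached 2-fold (0 of 4 called by edgeR and 0 by DESeq2, against 1.04% of the 18603 genes tested), while 3 of 4 had an adjusted p under 0.05 and a lower level without the fold threshold (against 3.76%). Gm48754 changed by −0.90 ± 0.147 (edgeR, adjusted p = 0.00201), Gm44739 by −0.85 ± 0.124 (adjusted p = 0.00106) and Gm47808 by −0.65 ± 0.104 (adjusted p = 0.00195). Gm44660 changed by −0.21 ± 0.144 with an adjusted p of 0.408, so its change was within the error. MERVL-int changed by −0.65 over the same step. With library size in place of TMM, Gm48754 and Gm44739 passed 2-fold as well (2 of 4 called).

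In MERVL-KD embryos all 4 genes were reduced at every stage, at the 2-cell stage to between 0.319% and 1.12% of the control mean. The criteria above were met by 4 of 4 genes in the direction of lower expression at each stage, beside 2.24% of 20604 genes tested at the 2-cell, 1.88% of 19738 at the 4-cell and 1.06% of 18414 at the 8-cell stage, and these counts restate how the genes were chosen. In the same libraries the summed level of 10 markers of the 2-cell stage was 1046 to 1243 CPM in MERVL-KD against 1830 to 1967 CPM in control 2-cell libraries, with Sp110 making up 58.1% and 59.1% of it, and that of 5 oocyte transcripts was 631 to 735 CPM against 1036 to 1039 CPM. Of these markers 1 of 10 and 0 of 5 were called lower by edgeR at that stage (1 and 0 by DESeq2). At an unadjusted p under 0.05 stood 9 of the 10 markers, all 10 with a negative log2 fold change, and 4 of the 5 oocyte transcripts. The summed level of the 2-cell markers was lower in MERVL-KD in 4-cell (763 to 819 against 1451 to 1552 CPM) and 8-cell embryos (1042 to 1220 against 1754 to 1856 CPM), with Sp110 at 87.1% or more of it. The 10 markers as a list were not lower there. Their median log2 fold change was 0.149 at the 4-cell stage, with 2 of 10 called lower (against 1.88% of all genes). At the 8-cell stage it was −0.0702, with 0 called by edgeR or DESeq2 and 2 at an unadjusted p under 0.05. The part of these markers in the levels of the 4 genes was not tested.

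At the 2-cell stage Gm47808 had 74 and 72 counts in the MERVL-KD libraries, against 7550 and 10068 in control. Its log2 fold change was −7.01 ± 0.134 (SE), a level 135-fold lower and 0.739% of control. Each SE is derived from the F statistic of the test and can understate the error at such low counts. Gm48754 had 58 and 44 counts against 3731 and 4277 (−6.40 ± 0.147, 89.4-fold lower). Gm47808 and Gm48754, the genes with an annotated intron, kept a larger residue at this stage than both single-exon genes. The order was different at the 4-cell stage, where single-exon Gm44660 kept 1.41% of control, Gm48754 1.25%, Gm47808 0.561% and Gm44739 the least. A relation to the intron was not tested.

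Gm44660 had 16 and 10 counts in the MERVL-KD 2-cell libraries against 3019 and 4112 in control (−8.19 ± 0.191, 314-fold lower, 0.319% of control). Gm44739 had 28 and 6 counts against 3723 and 5087 (−8.11 ± 0.265, 309-fold lower, 0.324% of control). The MERVL-KD libraries of Gm44739 differed from each other by more than those of the other 3 genes, and its change was −9.48 without the one with 28 counts and −7.52 without the one with 6.

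At the 4-cell stage Gm47808 had 8 and 20 counts against 2367 and 2185 (−7.47 ± 0.274), Gm48754 18 and 12 against 1233 and 931 (−6.29 ± 0.249) and Gm44660 11 and 12 against 835 and 647 (−6.13 ± 0.271). Gm44739 had 0 and 2 counts against 1487 and 1176. As both of its MERVL-KD libraries held 3 counts or fewer, its change is given as a bound, at least 489-fold lower, computed from a floor of 3 counts per library. It was the gene with the least signal left at this stage. Without the MERVL-KD library with 20 counts the change of Gm47808 was −8.32, and without the one with 8 counts −6.93.

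At the 8-cell stage Gm47808 had 4 and 18 counts in MERVL-KD against 1290 and 1360 in control (−7.25 ± 0.320), and Gm44660 had 8 and 7 against 565 and 590 (−6.59 ± 0.292). Gm44739 had 0 and 11 against 631 and 708 (−7.25 ± 0.520). Both values moved with single MERVL-KD libraries. The change of Gm47808 was −8.59 without the library with 18 counts and −6.63 without the one with 4, and that of Gm44739 was −6.34 without the library with 0 counts, while without the one with 11 counts nothing was left to measure and the fitted −12.5 depends on the prior count. Gm48754 stood apart from the other 3, with 27 and 40 counts against 549 and 491 (−4.31 ± 0.260), a 20.1-fold lower level. Its 8-cell MERVL-KD level of 0.8995 ± 0.176 CPM (SD, n = 2) was above its 4-cell level of 0.420 ± 0.102 CPM, whereas the 4-cell and 8-cell MERVL-KD libraries of Gm47808 overlapped. These differences between MERVL-KD stages were not tested.

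**Figure D3:**
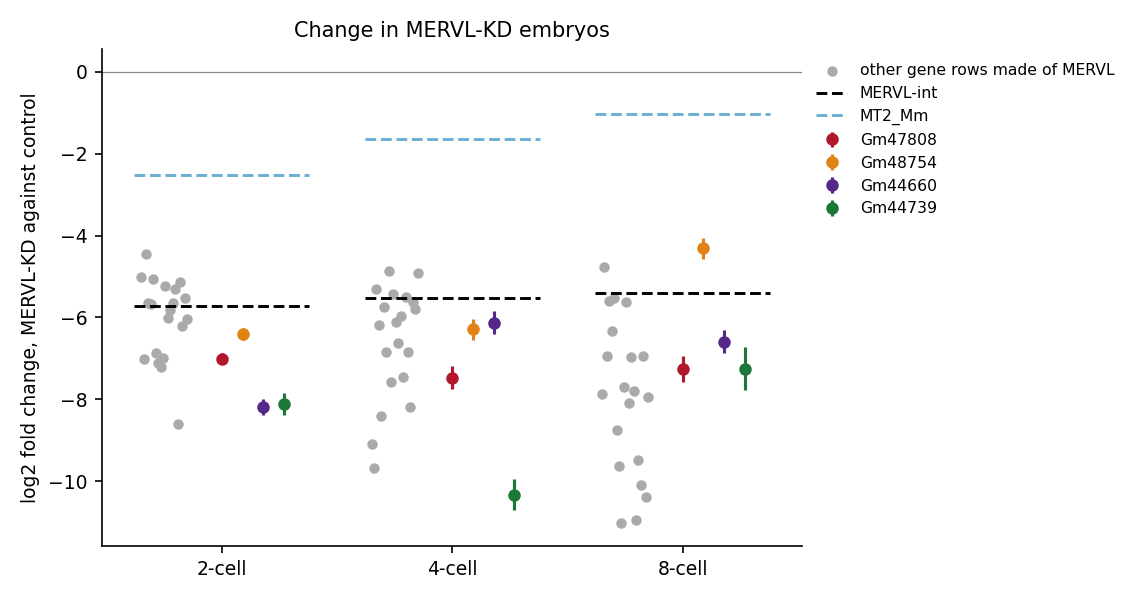
Change in MERVL-KD against control embryos (y axis, log2 fold change) at each stage (x axis). Coloured points are the 4 genes with their SE, grey points the other 20 gene names made of MERVL, dashed lines the MERVL-int and MT2_Mm families; the 4-cell point of Gm44739 and 1, 6 and 16 grey points at the 3 stages rest on 3 counts or fewer in each MERVL-KD library, so their height depends on the prior count. Gm48754 at the 8-cell stage is the coloured point above MERVL-int. The SE is derived from the F statistic and can understate the error at low counts.

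MERVL-int as a whole changed by −5.72 ± 0.0763, −5.53 ± 0.250 and −5.40 over the 3 stages, and MT2_Mm by −2.53, −1.63 and −1.03. The 4 genes were therefore set against the family in each library, as counts of the gene per 10000 counts of MERVL-int. As the genes were chosen among those that fell most, lower shares in MERVL-KD partly restate the choice and are a description. Gm47808 had 35.6 and 37.1 per 10000 in control 2-cell libraries and 13.3 and 16.6 in MERVL-KD. In later stages its control values were 33.1 to 43.6 and its MERVL-KD values 4.17 to 18.3. Its MERVL-KD libraries were below its controls throughout.

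Gm44660 went from 14.2 and 15.1 per 10000 in control to 2.87 and 2.30 in MERVL-KD at the 2-cell stage, from 11.7 and 12.9 to 6.13 and 10.97 at the 4-cell stage and from 16.8 and 16.5 to 8.33 and 6.08 at the 8-cell stage. Gm44739 went from 17.5 and 18.7 to 5.03 and 1.38, from 20.8 and 23.5 to 0 and 1.83, and from 18.7 and 19.8 to 0 and 9.55. In control embryos these shares stayed between 11.7 and 16.8 for Gm44660 and between 17.5 and 23.5 for Gm44739, and in MERVL-KD embryos they were lower in every library of the same stage.

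Gm48754 followed the same direction at the first 2 stages, from 17.6 and 15.7 to 10.4 and 10.1 per 10000 at the 2-cell stage and from 17.2 and 18.6 to 10.02 and 10.97 at the 4-cell stage. The order turned in 8-cell embryos, with 28.1 and 34.7 in MERVL-KD against 16.3 and 13.7 in control. This gene at this stage was the exception among 12 combinations of gene and stage. On the log2 scale its change exceeded that of MERVL-int by 0.685 and 0.762 in the direction of lower expression at the 2-cell and 4-cell stages and was 1.08 above it at the 8-cell stage. The overlapping gene Rala, in whose intron it lies, had 474 and 574 counts in control and 945 and 1005 in MERVL-KD 8-cell libraries (0.55 ± 0.153, edgeR, adjusted p = 0.0616). The strand setting of the read counting is not given in the sources used here, and the part of Rala reads in the counts of Gm48754 was not tested.

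**Figure D4:**
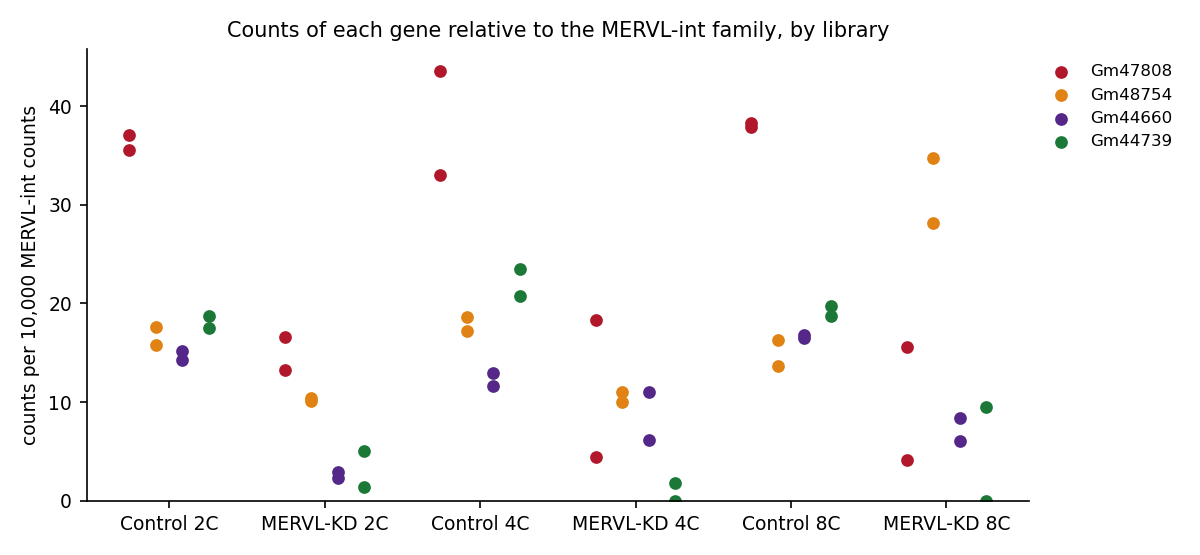
Counts of each gene per 10000 counts of MERVL-int (y axis) in every library by group (x axis). Colours are genes and points are libraries; the MERVL-KD points lie below the control points of their stage, apart from Gm48754 at the 8-cell stage, where they lie above (28.1 and 34.7 against 13.7 and 16.3).

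The 4 genes were not the most reduced on every measure. Among 46 tested predicted genes with a site, ordered by log2 fold change at the 2-cell stage, Gm44660, Gm44739, Gm47808 and Gm48754 held places 2, 3, 5 and 8, and by p-value they held places 3, 16, 1 and 2. Gm49858, which was not chosen, held place 1 (346 and 474 counts in control against 0 and 2, at least 153-fold lower), and Gm48271 (−7.21), Gm48422 (−6.98) and Gm47924 (−6.88) lay between the 4 genes. Just inside stood Gm48754 at −6.40, and just outside followed Gm50216 (−6.21), Gm50358 (−6.03), Gm48764 (−6.01), Gm43025 (−5.84) and Gm48799 (−5.81). All of these but Gm43025, whose exons were 49.4% MERVL, consisted of MERVL.

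Other gene names made of MERVL were reduced too. Of the 20 other gene names made of MERVL, miRNAs aside, 20 were called lower by edgeR at each stage, against 2.24%, 1.88% and 1.06% of all genes. DESeq2 called 19, 20 and 16 of them. At the 3 stages 1, 6 and 16 of the 20 held 3 counts or fewer in each MERVL-KD library. The median log2 fold change was −5.75 at the 2-cell stage. With the genes at 3 counts or fewer set at their bound it was −5.68 in 4-cell and −6.14 in 8-cell embryos. The 2-cell median over all genes was 0.014. Of 37 predicted genes with a site whose exons were not made of MERVL, 25 were tested at the 2-cell stage, 7 were called lower and their median was −0.54. At the 4-cell stage 8 of 18 were called lower, with a median of −1.95. At the 8-cell stage 4 of 17 were called lower, with a median of −0.87. DESeq2 called 7, 7 and 2 of this list at the 3 stages. Gm48113 (−7.12), Gm45899 (−7.02) and Gm43601 (−5.02) were made of MERVL and had no site within the annotated gene, although the copy around each had one. As the genes and the contrast are those of the choice, these counts are descriptions.

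Short annotated genes within MERVL differed by the copy they lay in. The annotation holds 49 predicted miRNA genes of 120 or 121 bases made of sense MERVL, of which 17 lie in copies with an oligonucleotide site (median copy length 4926 bases) and 32 in copies without (median 487 bases). In copies with a site 11 could be tested at the 2-cell stage and 9 were called lower by edgeR (beside 2.24% of all genes) and 6 by DESeq2. In copies without a site 15 were tested and 0 were called in either direction by edgeR or DESeq2, with 2 at an unadjusted p under 0.05. Copy length and the presence of a site cannot be told apart here.

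Gene names on the opposite strand of MERVL copies moved as well. Gm42713, Gm43546, Gm45136 and Gm47738 have exons made of antisense MERVL and no oligonucleotide site in their own transcripts. Over the 3 stages 4, 4 and 3 of 4 were called lower, against 2.24%, 1.88% and 1.06% of all genes. The exception was Gm43546 at the 8-cell stage. At the 3 stages 1, 2 and 2 of the 4 held 3 counts or fewer in each MERVL-KD library. Without a stated strand setting, reads of a copy and of a gene annotated on its other strand cannot be told apart, and this holds for the values of the 4 genes too.

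Over the 12 libraries the profiles of the 4 genes were alike. Pearson's r of the log2 CPM between pairs of them lay between 0.950 and 0.985, and with MERVL-int between 0.960 and 0.987. These points share libraries and fall into control and MERVL-KD groups, so r is a description. Among 24172 genes the 5 most like the mean profile of the 4 were Gm45136 (r = 0.996), Sycp1 (0.977), Gm47924 (0.971), Gm48422 (0.969) and Gm50216 (0.969). Of these, Gm45136 consists of antisense MERVL and Gm47924, Gm48422 and Gm50216 of sense MERVL. In the MERVL-KD libraries Gm45136 held 0 to 4 counts and Gm47924 0 to 6, so their r depends on the prior count.

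Sycp1, which encodes a protein of the meiotic synaptonemal complex, was the gene in that list with 0% MERVL in its exons. It held 4308 and 6313 counts in control 2-cell, 4226 and 2755 in control 4-cell and 2858 and 2279 in control 8-cell libraries. In MERVL-KD embryos it held 2026 and 1283, 941 and 890, and 1160 and 1120 counts. Its MERVL-KD libraries were below its controls at each stage, by a much smaller factor than for the 4 genes.

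Neighbouring genes were examined because a MERVL copy can give its transcript or its promoter to the sequence beside it. Within 100 kb of the 4 genes lay 42 other gene names, of which 26, 21 and 16 could be tested at the 2-cell, 4-cell and 8-cell stages. At the 2-cell stage 5 of 26 were called (19.2%, against 6.61% of all genes in either direction), 2 higher and 3 lower. At the 4-cell stage 3 of 21 were called (14.3%, against 4.54%), and at the 8-cell stage 1 of 16 (6.25%, against 1.7%). Gm48799 was among them at all 3 stages (−5.81, −5.97 and −6.96), and it is itself made of MERVL with 3 sites of its own. Without it the counts were 4, 2 and 0.

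Downstream of Gm48754 and on its strand, 2 of the 3 nearest tested genes fell at the 2-cell stage. A930027P06Rik, 13504 bases beyond its end, had 28 and 32 counts in MERVL-KD against 101 and 95 in control (−1.81 ± 0.392, edgeR, adjusted p = 0.0054). Gm5628, a processed pseudogene 11474 bases beyond, had 55 and 61 against 110 and 128 (−1.13 ± 0.330, adjusted p = 0.0318). The groups did not overlap for either gene, and with all 12 libraries in 1 fit neither was called (adjusted p = 0.108 and 0.291). The call of Gm5628 was also lost with DESeq2 (adjusted p = 0.0669), with library size alone (0.0789) and without the first control (0.0883), the second control (0.0845) or the first MERVL-KD library (0.13). The nearest of the 3, Gm32699, 5857 bases beyond the end of Gm48754, had 97 and 92 counts in MERVL-KD against 60 and 40 in control (0.79 ± 0.382, adjusted p = 0.201).

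Beside Gm44660 the called neighbours were higher in MERVL-KD embryos. Pvr, a cell adhesion receptor gene that lies 3780 bases downstream on the opposite strand, rose at the 2-cell stage from 3.83 and 4.17 to 8.83 and 7.23 CPM (1.08 ± 0.232, edgeR, adjusted p = 0.00517). At the 4-cell stage its level was 4.10 and 3.82 CPM in MERVL-KD against 8.85 and 6.81 in control, a change of −0.98 that stayed below the fold threshold. Ceacam19, an adhesion molecule gene 9369 bases upstream, rose from 14 and 30 to 114 and 40 counts at the 2-cell stage (1.67 ± 0.518, adjusted p = 0.0431), and without the MERVL-KD library with 114 counts its adjusted p was 0.512. Bcl3, a regulator of NF-kB 74564 bases upstream, rose at the 4-cell stage from 7 and 14 to 107 and 34 counts (2.54 ± 0.696, adjusted p = 0.0384), with an adjusted p of 0.362 without the library with 107 counts.

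Around Gm44739 the nearest tested gene was Gm44736, a lincRNA 4490 bases downstream on the same strand that begins inside the end of the same copy. It fell at the 4-cell stage from 6.74 and 8.33 to 3.06 and 2.32 CPM (−1.48 ± 0.292, edgeR, adjusted p = 0.00792). At the 2-cell stage its level was 20.5 and 28.8 CPM in MERVL-KD against 16.8 and 20.3 in control (0.48 ± 0.166, adjusted p = 0.0695). Around Gm47808 0 of the tested neighbours were called at any stage in edgeR's test (the lowest unadjusted p was 0.445), and the nearest, Rad51ap2, had 124 and 118 counts in MERVL-KD against 118 and 104 in control 2-cell embryos (adjusted p = 0.992). Rala, around Gm48754, changed by 0.05 at the 2-cell stage (adjusted p = 0.816) and 0.33 at the 4-cell stage (adjusted p = 0.19).

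**Figure D5:**
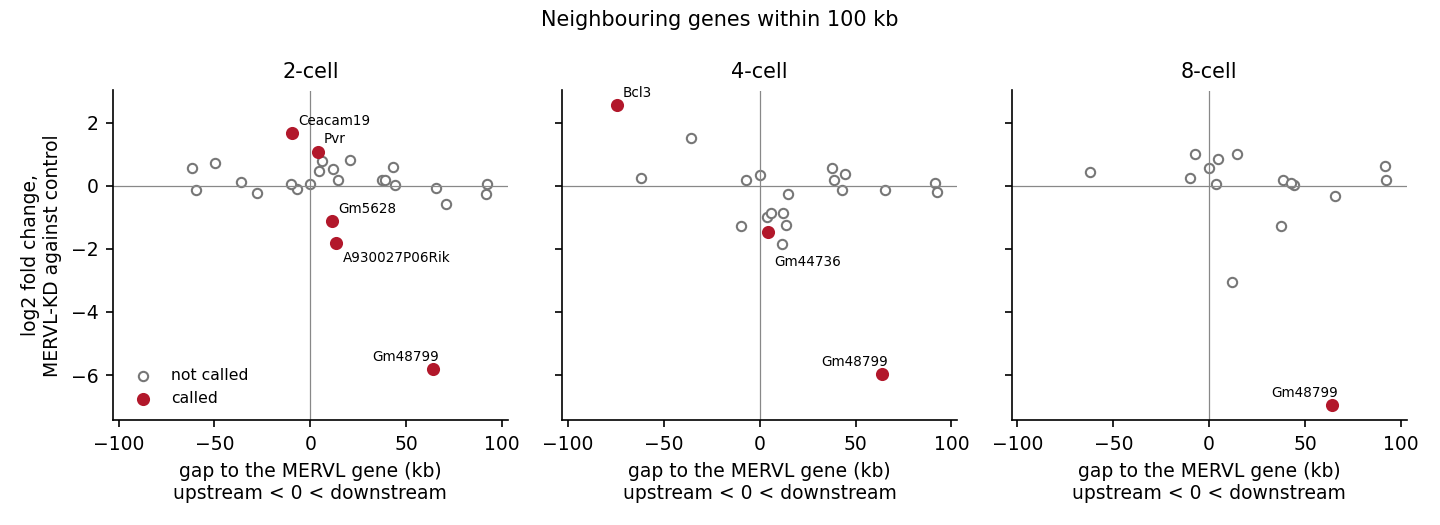
Change in MERVL-KD against control (y axis, log2 fold change) of the tested genes within 100 kb by their distance from the MERVL gene (x axis, kb, upstream negative and downstream positive in the direction of its transcription), for the 3 stages. Red points passed the call and open points did not; Gm48799, itself made of MERVL, is the lowest point in each panel.

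Known regulators of MERVL were listed to place the 4 genes beside their upstream factors. Of 11 activators, 1 rose and 1 fell in 2-cell embryos, 1 fell in 4-cell embryos and 0 were called in 8-cell embryos (0 by DESeq2 as well, and 1 at an unadjusted p under 0.05), against 6.61%, 4.54% and 1.7% of all genes in either direction. In 2-cell embryos 10 of the 11 had a negative log2 fold change, with a median of −0.49, and 9 of 11 had an unadjusted p under 0.05. The size of most changes was below 2-fold, also for genes that passed edgeR's adjusted threshold. Among these were Zscan4f (−0.98, adjusted p = 0.000282) and Nr5a2 (−0.65, adjusted p = 0.000247), while Duxf3 (−0.61, adjusted p = 0.339) did not pass it. Gata2, a GATA-family transcription factor, rose by 1.44 ± 0.234 at the 2-cell stage (edgeR, adjusted p = 0.000687), and Zscan4c, a zinc finger gene of the 2-cell stage, fell by 1.47 on the log2 scale (SE 0.161, adjusted p = 1.93e-05). Zfp352, a zinc finger gene that stems from a retroposon, fell by 1.04 on the log2 scale at the 4-cell stage (SE 0.271, adjusted p = 0.0317). Of 12 silencers, which include Trim28, Setdb1 and Kdm1a, 0 were called at any stage by edgeR or DESeq2. At an unadjusted p under 0.05 stood 5, 6 and 6 at the 3 stages, and log2 fold changes lay between −0.66 and 0.32. Some passed edgeR's adjusted threshold but not the fold threshold. These included Hdac1 at all 3 stages (adjusted p = 0.000633, 0.000722 and 0.0125) and Trim28 at the 8-cell stage (−0.57, adjusted p = 0.00098). Kdm1a passed it at none (adjusted p = 0.723, 0.625 and 0.782).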

How the data were processed

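Total RNA of 30 embryos per library was made into stranded, randomly primed, rRNA-depleted paired-end libraries. The authors aligned the reads with STAR 2.5.3a to GRCm38 (mm10), kept unique alignments, counted them with featureCounts per GENCODE gene and RepeatMasker family, and deposited the raw counts of 56326 names without normalization. The strand setting is not given in the sources used here. Totals were 28167085 to 41482526 counts per library. Both mates were mostly counted, so a count is no independent molecule and the floor of 3 counts covers counting error only.

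The 4 genes, the gene lists and the tests were chosen with earlier results of these data known. Genes were tested with edgeR 4.0.16 (R 4.3.3) by filterByExpr, TMM and the robust quasi-likelihood test over all names of the 4 libraries compared, with Benjamini-Hochberg adjustment. A call needed an adjusted p under 0.05 and at least a 2-fold change. P-values measure the spread between 2 replicate libraries per group, which the study describes as biological replicates. Each SE is the size of the log2 fold change divided by the square root of the F statistic of that test. At low counts it can understate the error. The procedure was tested on simulated data, in which the changes were smaller than those of the 4 genes in MERVL-KD embryos. CPM used TMM factors over the 12 libraries, and likeness used log2 CPM with a prior count of 0.5. Replicate numbers did not pair the libraries (correlation of same-numbered deviations −0.0053 to 0.0209).

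Oligonucleotide sequences came from the study's supplementary tables, and sites with up to 2 mismatches were sought on the transcribed strand of each gene. MERVL was located with BLAST 2.17.0 (E-value up to 1e-10) from a complete copy on chromosome 1, because the consensus was held only in part. Gene and exon coordinates are those of the count files, while identifiers, transcript models and gene classes are from an earlier GENCODE release of the same build, in which 52854 gene names have the same span. The named genes are the 4, the 5 most like them, called or nearest neighbours within 100 kb, the 5 next predicted genes with a site, and called regulators. Genes between the 4 and the next 5, genes made of MERVL without a site, genes on its opposite strand and regulators that were not called were named after their values were seen. Alternatives were DESeq2 1.42.0, its size factors, library size alone, filters of 1 or 10 counts, a replicate block, 1 fit of the 12 libraries, no fold threshold, a fit without robust estimation, gene names alone, halved counts, other distances and each library left out. The scales per unique window and per MERVL-int count were added after the data had been seen. ATAC-seq libraries were not analysed here.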

Additional observations from a re-analysis of the deposited data

Results flagged for a closer look

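Differences between stages of the change in MERVL-KD embryos were tested for the neighbours of the 4 genes as interaction contrasts in 1 edgeR fit of the 12 libraries, a test chosen after the data had been seen. Over 24850 gene and repeat family names, 1025, 989 and 159 had an adjusted p under 0.05 for the 2-cell against the 4-cell, the 2-cell against the 8-cell and the 4-cell against the 8-cell stage. Of the neighbours, 28 could be tested in this fit, and 3 genes had a difference between stages. Pvr and Gm44736 passed for the first of these contrasts, Gm16184 for the second and Gm44736 for the third. For the 2-cell against the 8-cell stage the share of neighbours was close to that of all names. An excess over all names was not tested. The change of Pvr, next to Gm44660, differed by −1.98 ± 0.400 on the log2 scale (4-cell minus 2-cell, SE, adjusted p = 0.00614), with MERVL-KD above control in both libraries at the 2-cell stage and below it in both at the 4-cell stage. The change of Gm44736, beside Gm44739, differed by −1.88 ± 0.377 from the 2-cell to the 4-cell stage (adjusted p = 0.00577) and by 2.33 ± 0.419 from the 4-cell to the 8-cell stage (adjusted p = 0.0115). The change of Gm16184, a processed pseudogene 12027 bases downstream of Gm44660, differed by −3.50 ± 0.648 from the 2-cell to the 8-cell stage (adjusted p = 0.0031). It had 271 and 359 counts in control and 590 and 386 in MERVL-KD 2-cell libraries, and 21 and 20 against 4 and 2 at the 8-cell stage. The causes of these differences were not tested.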

How the results depend on the processing

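Of 126 recomputed counts of called genes, 110 stayed within 1.5 times the reported count and 16 did not. All 4 genes were called lower in MERVL-KD embryos at each stage under every alternative but one. With at least 10 counts in every library 3 genes in 2-cell, 2 in 4-cell and 1 in 8-cell embryos were left to test, and all of these were called. From the control 2-cell to the 4-cell stage all 4 were called under every alternative. From the control 4-cell to the 8-cell stage 2 were called with library size alone, 3 without the fold threshold and 0 to 1 with a library left out (Gm48754, without the first control 8-cell library), and the adjusted p of Gm44739 was 0.15 with all 12 libraries in 1 fit. The log2 fold changes in MERVL-KD embryos moved most with a MERVL-KD library left out (for Gm47808 at the 2-cell stage, with library size alone), over the alternatives from −9.48 to −7.52, from −13.4 to −9.38 and from −12.5 to −6.34 for Gm44739 at the 3 stages, and from −7.12 to −6.72, from −8.32 to −6.93 and from −8.59 to −6.63 for Gm47808. Those of Gm48754 (−6.50 to −6.12, −6.57 to −6.07 and −4.53 to −4.14) and Gm44660 (−8.45 to −7.90, −6.23 to −6.03 and −6.77 to −6.41) moved less.

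Calls of neighbours were less stable. The 5 at the 2-cell stage became 3 with DESeq2, 1 with all 12 libraries in 1 fit, 10 within 500 kb and 2 to 5 with a library left out (3 without the first control and 2 without the first MERVL-KD library). The 3 at the 4-cell stage became 1 with at least 10 counts in every library, 1 within 50 kb and 2 to 5 with a library left out (5 without the second control library). The 1 at the 8-cell stage became 0 with at least 10 counts, 2 with all 12 libraries in 1 fit and 0 within 50 kb. Pvr stayed below 2-fold at the 2-cell stage in the fit of 12 libraries (0.99) and without the first MERVL-KD library (0.90). The replicate numbers of control and MERVL-KD libraries only name samples. A replicate block gave 4, 4 and 4 calls of the 4 genes and 4, 2 and 1 calls of neighbours at the 3 stages, with adjusted p = 0.0639 for Ceacam19 and 0.089 for Bcl3. The 4 genes held 0 to 40 counts in the MERVL-KD 4-cell and 8-cell libraries, which limits the precision of their fold changes there.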
